A study of Mus musculus with 4 samples.

Results

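The genes that encode collagens, laminins, integrins and a small group of matrix glycoproteins were followed in HT-22 cells, an immortalized line of mouse hippocampal neurons. They were taken by a rule on symbols: all numbered collagen chains (Col), laminin chains (Lama, Lamb and Lamc) and integrin subunits (Itga and Itgb). Fn1, Sparc, Fbn1, Thbs1, Nid1 and Nid2 were added. This choice was made with earlier results of these data known. The mouse annotation held 81 such symbols, of which 43 had a value among the 11502 gene symbols of the deposited table, and the other 38 were not analysed here. The RNA-Seq experiment compared 4 groups with 1 library each. Ctrl cells carried a negative control lentivirus (labelled as wild type) and PGC-1α cells carried a lentivirus that overexpresses PGC-1α, a transcriptional co-activator of mitochondrial genes. Ctrl+OGD and PGC-1α+OGD were the same kinds of cells after oxygen and glucose deprivation (OGD), which consisted of 2 h without oxygen, serum and glucose and then 24 h back in normal medium. All 4 groups were puromycin-selected HT-22 cells; the promoter that drove PGC-1α and the number of cultures behind a library are not given in the sources used here.

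Collagens are built from 3 chains wound into a triple helix: the fibrillar types (I, II, III, V and XI) form the fibers of connective tissue, whereas type IV forms the sheet of the basement membrane. Laminins are cross-shaped heterotrimers of an α, a β and a γ chain and are the other main scaffold of the basement membrane. Integrins are the receptors that bind these proteins on the cell surface, each as a pair of 1 α and 1 β subunit, and in the brain they anchor neurons, glia and vessels to the basement membrane around vessels and to the sparse matrix between cells.

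Values were taken as FPKM, that is fragment numbers scaled to transcript length and library size, although the deposited data do not name the unit. On that reading levels may be compared between genes. The deposited transcripts of each gene were summed. Lists of 4 values follow a fixed order, first Ctrl and PGC-1α and then their OGD counterparts, Ctrl+OGD before PGC-1α+OGD. A mean of 1 FPKM was required for a comparison, which left 34 of the 43 genes and 10604 genes in all. Changes are differences of log2(FPKM + 1), called log2 fold change below, and those of 1.5-fold or more were called higher or lower. This scale understates the change of genes near 1 FPKM. With 1 library per group no difference could be checked against replicates, p values were not computed, and the number of reads behind the values is unknown. In a bulk library, fewer cells of a type and less RNA per cell cannot be told apart.

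The overexpressed gene, Ppargc1a, had 0.90, 35.1, 0.103 and 8.41 FPKM, so that both overexpressing libraries were above both controls. It was lower in PGC-1α+OGD than in PGC-1α (log2 fold change -1.94), so the level of overexpression was not the same with and without OGD. The part of this in the results below was not tested. The label of hippocampal neurons was checked against marker genes. Of 12 neuronal markers only Camk2a had a value, between 4.40 and 7.31 FPKM, and the other 11 were not analysed here. Of 10 fibroblast and mesenchymal markers 5 had a value, and their summed level was 803, 894, 1268 and 952 FPKM, most of it from Vim and S100a4. The growth factor receptors of this list were Pdgfra, at 59.1, 60.3, 37.2 and 40.0 FPKM, and Pdgfrb, at 28.3, 18.4, 20.4 and 17.2 FPKM. Acta2 was below the filter, at 0.474 to 0.847 FPKM, and the other 5 of the 10 were not analysed here. Markers of astrocytes (4 of 7 with a value), oligodendrocytes (1 of 7), microglia (2 of 6) and endothelial cells (1 of 6) summed to at most 40.8, 4.76, 2.66 and 0.949 FPKM. The part of these marker genes in the results below was not tested.

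Sequences are shown here for the genes on which the results turn. Col9a1 was the gene with the lowest log2 fold change after OGD, and its only deposited transcript, Col9a1-202, begins at the downstream of 2 start sites, at 24195187 on chromosome 1. The gene itself begins at 24177610. Itgb7 was the one member higher by 1.5-fold after OGD in both kinds of cells. The bases before these 3 starts are given 5′ to 3′ from RefSeq (GRCm38.p6), on the plus strand for Col9a1 and on the minus strand for Itgb7, and each stops at the first transcribed base.
Col9a1 upstream start, chr1:24177360-24177609: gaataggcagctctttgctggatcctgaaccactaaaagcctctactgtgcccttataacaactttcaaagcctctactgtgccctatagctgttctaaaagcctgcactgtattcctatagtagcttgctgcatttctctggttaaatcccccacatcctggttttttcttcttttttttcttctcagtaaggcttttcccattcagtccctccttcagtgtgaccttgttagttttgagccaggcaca
Col9a1 downstream start, chr1:24194953-24195186: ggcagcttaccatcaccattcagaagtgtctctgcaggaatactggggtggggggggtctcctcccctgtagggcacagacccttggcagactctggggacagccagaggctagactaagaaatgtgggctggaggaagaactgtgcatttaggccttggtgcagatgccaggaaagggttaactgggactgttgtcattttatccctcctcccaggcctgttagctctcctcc
Itgb7, chr15:102231945-102232185: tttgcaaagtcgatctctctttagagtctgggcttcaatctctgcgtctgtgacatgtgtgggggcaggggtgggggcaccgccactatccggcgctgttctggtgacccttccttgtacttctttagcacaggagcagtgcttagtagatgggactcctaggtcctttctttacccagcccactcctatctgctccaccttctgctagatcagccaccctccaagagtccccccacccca
None of 5 motifs searched on both strands, ACGTG and GCGTG (cores of the hypoxia response element), GGGCGG (the GC box), TGANTCA (the AP-1 site) and TATAAA (the TATA box), was found in these letters, so no base is in capitals. RefSeq promoter windows of 250 bases before to 50 after a start were at hand for 31 of the 43 genes, 36 windows in all. ACGTG was in 3 of them (8.33%, against 19.6% of 32851 windows of all genes) and GCGTG in 9 (25% against 32.4%). The GC box was in 22 (61.1% against 35.7%), the AP-1 site in 2 (5.56% against 7.81%) and TATAAA in 3 (8.33% against 13.6%). These matches are a description of letters and do not show binding.

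Among the genes with several forms, the results turn on exons of Fn1 and Sparc. Fn1 (fibronectin) has 2 optional exons, extra domain B and extra domain A, which mark the cellular form of the protein. Both are given from transcript Fn1-201 on GRCm38, minus strand, 5′ to 3′. The Sparc exon is the 60-base form of transcript Sparc-201 at chr11:55407220-55407279, minus strand, and its capitals mark the 3 bases that transcript Sparc-202 lacks.
Fn1 extra domain B, chr1:71613763-71614035: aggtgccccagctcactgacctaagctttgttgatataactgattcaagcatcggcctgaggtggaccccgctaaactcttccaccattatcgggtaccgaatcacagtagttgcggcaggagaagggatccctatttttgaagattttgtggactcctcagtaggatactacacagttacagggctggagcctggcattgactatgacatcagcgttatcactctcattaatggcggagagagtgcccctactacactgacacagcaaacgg
Fn1 extra domain A, chr1:71603660-71603929: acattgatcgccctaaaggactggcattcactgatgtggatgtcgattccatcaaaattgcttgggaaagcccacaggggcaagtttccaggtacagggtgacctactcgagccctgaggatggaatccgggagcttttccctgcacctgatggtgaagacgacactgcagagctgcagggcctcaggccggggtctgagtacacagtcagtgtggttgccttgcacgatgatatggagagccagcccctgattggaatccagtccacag
Sparc exon of Sparc-201: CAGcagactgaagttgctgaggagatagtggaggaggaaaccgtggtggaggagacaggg

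Some matrix genes were highly expressed in these cells, whereas 9 of the 43 with a value were below the filter. In the Ctrl library the 43 genes summed to 2740 FPKM, which was 0.826% of all FPKM, and Sparc alone reached 557 FPKM. The other libraries had sums of 2530 FPKM (0.748%), 2209 FPKM (0.625%) and 2079 FPKM (0.599%) in the fixed order, so both OGD libraries were below both others. The basement membrane collagens summed to 160, 162, 150 and 138 FPKM and the fibrillar collagens to 617, 663, 566 and 542 FPKM. The remaining collagens, those neither fibrillar nor of type IV, went from 782 and 724 FPKM without OGD to 601 and 524 FPKM with it, Ctrl before PGC-1α in each pair. The laminin sum was 224 FPKM in Ctrl and between 146 and 162 FPKM in the other 3 libraries. It includes Lamc1-204, a transcript incomplete at its start, at 43.1, 0.966, 0.886 and 33.5 FPKM, so the contrast with Ctrl rests in part on it. The integrin α subunits were lowest in class, at 51.3 to 65.8 FPKM, and the β subunits summed to 132 to 171 FPKM.

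**Figure D1:**
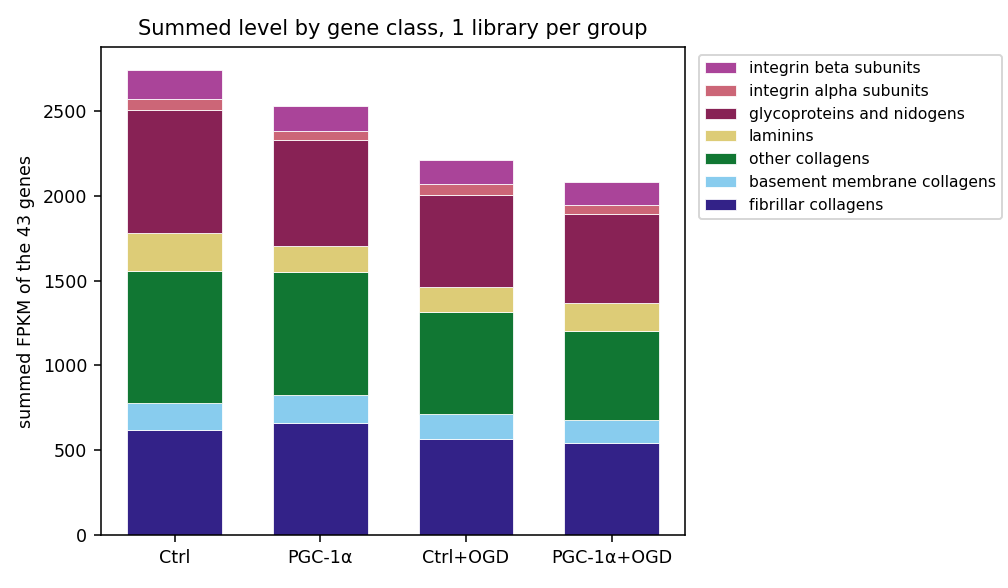
Summed FPKM of the 43 genes (vertical axis) in the 4 libraries, stacked by gene class, with 1 library per bar and no error bars. The full bars fall from 2740 in Ctrl to 2530, 2209 and 2079, and the laminin block is 224 in Ctrl against 146 to 162 elsewhere. The laminin block includes the incomplete transcript Lamc1-204, at 43.1 in Ctrl and 33.5 in PGC-1α+OGD.

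Among the fibrillar collagens, the 2 chains of type I led. Col1a2, the α2 chain, had 248, 265, 249 and 236 FPKM, and Col1a1, the α1 chain, had 175, 198, 169 and 156 FPKM. Neither passed 1.5-fold in any comparison, and the largest change of these chains was that of Col1a1 for PGC-1α+OGD vs PGC-1α (-0.34). The ratio of Col1a1 to Col1a2 stayed between 0.661 and 0.747, although type I collagen takes up more α1 than α2 chains. Type V, which is built into type I fibrils and sets their width, was represented by Col5a1 (112, 114, 89.8 and 84.5 FPKM), Col5a2 (33.1, 45.8, 25.2 and 35.7 FPKM) and Col5a3 (34.5, 26.2, 25.3 and 21.1 FPKM). Col5a2 was higher and Col5a3 lower in each PGC-1α library than in its control. Col11a2, a chain of the cartilage fibril collagen type XI, had 10.8, 8.78, 4.62 and 5.94 FPKM, and Col3a1, the chain of the type III collagen of soft tissue, had 3.17, 5.39, 2.94 and 3.07 FPKM. Col2a1, the main collagen of cartilage, stayed at or below 0.517 FPKM and was below the filter.

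Of the 6 type IV chains, 3 had a value. Col4a1 had 83.3, 84.1, 78.4 and 68.5 FPKM, Col4a2 had 67.8, 66.5, 64.9 and 60.4 FPKM, and the X-linked Col4a5 had 9.08, 11.4, 6.74 and 8.87 FPKM. Col4a1 and Col4a2 together make the common type IV trimer and are a head-to-head gene pair on chromosome 8 whose starts lie 21 bases apart. Their ratio was 1.23, 1.27, 1.21 and 1.13, so they kept nearly the same proportion in the 4 libraries. The genes overlap by 22 bases on opposite strands, and whether the authors' counting used strand is not stated.

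The other collagens were led by type VI, which forms beaded microfibrils next to basement membranes. Col6a1 had 239, 231, 177 and 147 FPKM, Col6a2 had 183, 163, 141 and 109 FPKM, and Col6a3 had 173, 182, 142 and 140 FPKM. All 3 chains were lower in each OGD library than in its counterpart without OGD. Col18a1, the basement membrane proteoglycan that gives rise to endostatin, was at 110, 71.5, 68.7 and 55.0 FPKM. Col8a1, a short-chain collagen of vessel walls, was at 26.0, 37.3, 42.2 and 40.9 FPKM, with Ctrl lowest. The fibril-associated chains were Col16a1 (30.1, 20.6, 22.1 and 21.9 FPKM), Col9a1 (14.3, 13.8, 4.31 and 4.52 FPKM) and Col20a1 (3.10, 2.70, 1.36 and 1.52 FPKM). Col7a1, the anchoring fibril collagen of skin, stayed between 1.25 and 1.37 FPKM. Below the filter were Col17a1, a hemidesmosome component, at 0.609, 0.613, 1.32 and 1.29 FPKM, Col9a3, a partner chain of Col9a1, at 0.243 to 0.730 FPKM, and Col19a1, which was listed at 0.961 FPKM in Ctrl and at 0 in the other 3 libraries.

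Among the glycoproteins, Sparc, a calcium- and collagen-binding protein, had 557, 467, 440 and 411 FPKM and was the highest of the 43 genes in every library. Fn1 had 136, 126, 76.6 and 91.2 FPKM, and Fbn1, the fibrillin of microfibrils, had 32.7, 29.6, 25.0 and 25.6 FPKM. Both were lower in each OGD library than in its counterpart. Thbs1, the thrombospondin that binds and activates TGF-β, was below the filter at 0.448, 0.776, 0.0566 and 0.147 FPKM.

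The laminin chains were uneven. Lamc1, the γ1 chain shared by most laminins, had 106, 58.9, 58.2 and 81.6 FPKM, and Lamb1 (β1) had 91.9, 74.4, 65.8 and 59.3 FPKM. Lamb2 (β2, the chain of synaptic laminins) was at 19.1, 17.3, 15.8 and 15.5 FPKM. Lama5 (α5), the only α chain with a value, was at 4.74, 4.13, 3.92 and 3.70 FPKM, so that Lamb1 exceeded it 16.0- to 19.4-fold per length in the 4 libraries. The epithelial chain Lamb3 was below the filter, at 0.492 to 0.664 FPKM.

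Among the integrins, the β subunits Itgb1 and Itgb5 were above every α subunit with a value. Itgb1 (β1), which pairs with α5, α6, α7 and αv among others, had 94.9, 83.7, 74.0 and 74.9 FPKM, and Itgb5 (β5), a partner of αv in a vitronectin receptor, had 71.6, 63.7, 57.6 and 52.1 FPKM. Itga5 (α5), the fibronectin receptor subunit, was at 29.7, 27.3, 29.5 and 32.5 FPKM. Itgav (αv), which binds vitronectin, fibronectin and latent TGF-β, was at 16.5, 13.5, 22.2 and 11.8 FPKM. The laminin receptor subunits were Itga6 (10.8, 8.21, 11.3 and 8.82 FPKM) and Itga7 (2.49, 1.73, 1.87 and 1.13 FPKM), and both were lower in each PGC-1α library than in its control. Itgb7 (β7), the subunit of lymphocyte homing receptors, had 2.17, 1.60, 4.46 and 3.17 FPKM. Its usual partner α4 (Itga4) was not analysed here. Itga3, Itgb4 and the leukocyte subunit Itgb2 were below the filter, with highest values of 0.926, 1.05 and 1.54 FPKM.

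**Figure D2:**
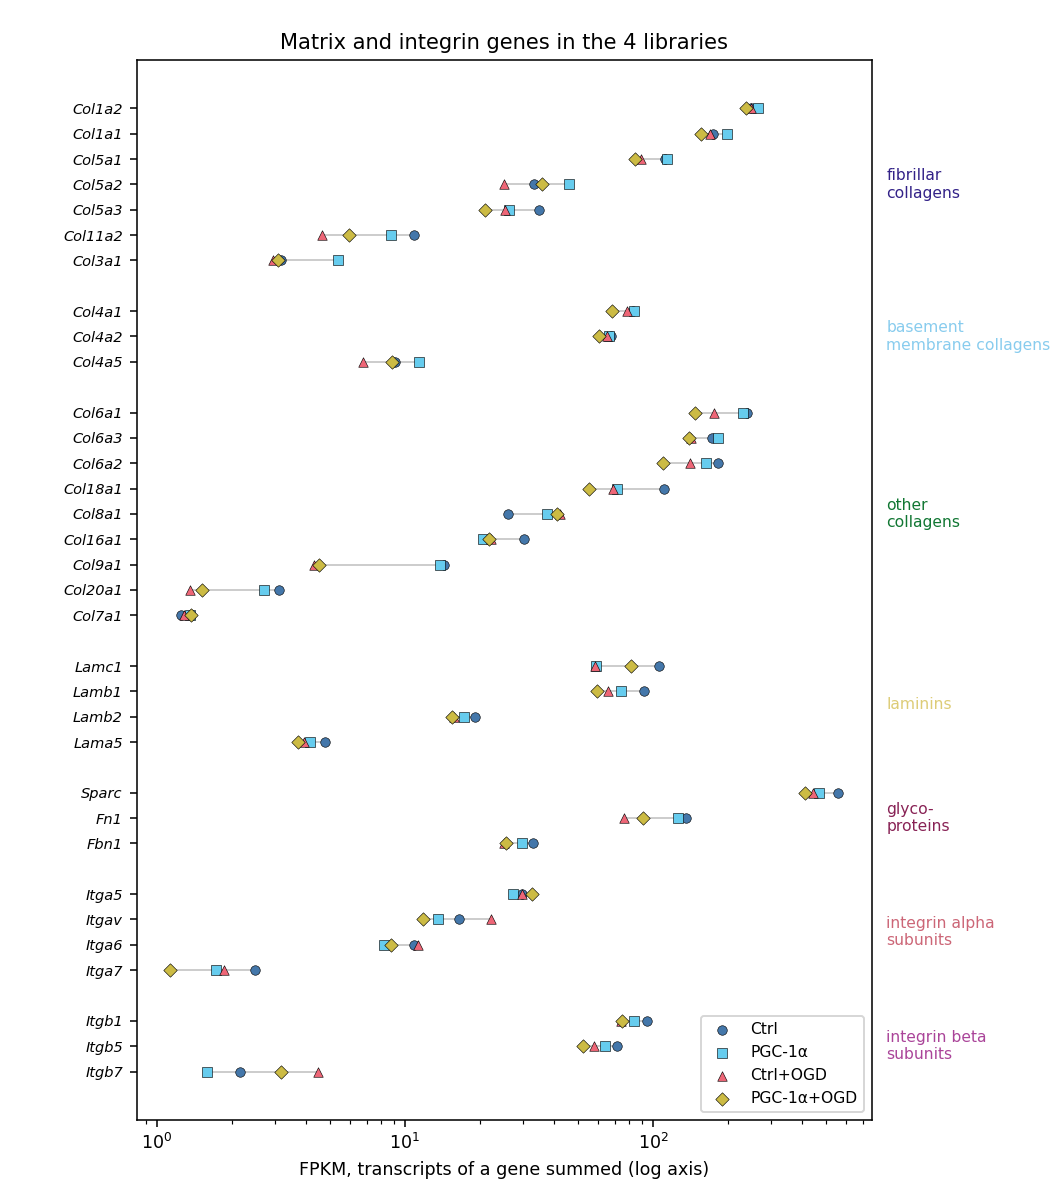
FPKM (horizontal axis, log scale) of the compared genes reported here, 1 symbol per library, grouped by gene class and ordered by mean level. Sparc, the type I and the type VI collagens lie highest, and Col9a1 has the widest spread on this scale, from 4.31 to 14.3.

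After OGD, most matrix genes were lower in both kinds of cells. In Ctrl+OGD vs Ctrl, 28 of the 34 genes were below 0 on the log2 scale, against 52% of all 10604 genes, and the median was -0.31 against -0.02 for all genes. In PGC-1α+OGD vs PGC-1α, which shares no library with the first comparison, 26 of 34 were below 0, against 49.9% of all genes, and the median was -0.29 against 0.00. In both comparisons together 24 of 34 genes (70.6%) were below 0, against 32.7% of all genes. The collagens made up most of these, with 15 of 19 below 0 in both comparisons and medians of -0.38 and -0.35. The glycoproteins had 3 of 3 and the laminins 3 of 5 below 0 in both, and the integrins also had 3, of 7. These single changes were small: few passed 1.5-fold, and a median of 34 genes in 1 library per group has no replicate error.

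By 1.5-fold, 6 of the 34 genes were lower in Ctrl+OGD than in Ctrl (17.6%), against 7.71% of all genes. They were Col9a1, Col11a2, Lamc1, Fn1, Col20a1 and Col18a1. The largest difference was that of Col9a1, a chain of the fibril-associated type IX collagen of cartilage, with a log2 fold change of -1.53. Col11a2 followed with -1.07, and its deposited transcript Col11a2-202 was listed at 2.04 FPKM in Ctrl and at 0 in the other 3 libraries. Fn1 was at -0.82, Col20a1 at -0.80 and Col18a1 at -0.68. Lamc1 was at -0.85, but nearly all of this lay in a single short transcript described below. In the PGC-1α cells, OGD went with lower values of 3 of the 34 genes (8.82%), against 5.22% of all genes: Col9a1 (-1.43), Col3a1 (-0.65) and Col6a1 (-0.64).

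Col9a1 (ENSMUSG00000026147) was the one gene of the 34 that was lower by 1.5-fold after OGD in both kinds of cells, which held for 1.74% of all genes. In GRCm38 it spans 24177610 to 24252684 of chromosome 1, plus strand. Its 2 libraries without OGD (14.3 and 13.8 FPKM) were more than 3 times the 2 libraries with OGD (4.31 and 4.52 FPKM), and PGC-1α made little difference on either side, with log2 fold changes of -0.05 and 0.06. The transcript measured, Col9a1-202 of 3059 bases, starts downstream and lacks the upstream exons, and the long form was not analysed here. The genes that were lower by 1.5-fold in only 1 of these comparisons had values on the same side of 0 in the other, with 1 exception. Col11a2 was at -0.50, Col20a1 at -0.56, Fn1 at -0.46 and Col18a1 at -0.37 in the PGC-1α cells, and Col6a1 was at -0.43 and Col3a1 at -0.08 in the Ctrl cells. Lamc1, at 0.46 in the PGC-1α cells, was on the other side.

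Only 2 genes were higher by 1.5-fold after OGD in Ctrl cells (5.88%), against 6.2% of all genes, and 1 in PGC-1α cells (2.94%), against 3.82%. Itgb7 (ENSMUSG00000001281, chromosome 15, minus strand, 102215995 to 102231944) was higher in both, with log2 fold changes of 0.78 and 0.68, which held for 0.764% of all genes. Its level was low in every library, between 1.60 and 4.46 FPKM, and it rests on 1 transcript of 2683 bases. Col8a1 (ENSMUSG00000068196, chromosome 16, minus strand, 57624258 to 57754737) was higher in the Ctrl cells, at 0.68, and at 0.13 in the PGC-1α cells, where its level without OGD was already 37.3 FPKM. The other genes above 0 in both comparisons were Col7a1, at 0.03 and 0.01, and Itga6, at 0.06 and 0.09. Of the most abundant genes, Col1a2 was at 0.00 and -0.17, Col1a1 at -0.04 and -0.34, Sparc at -0.34 and -0.19, and Itgb1 at -0.36 and -0.16.

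**Figure D3:**
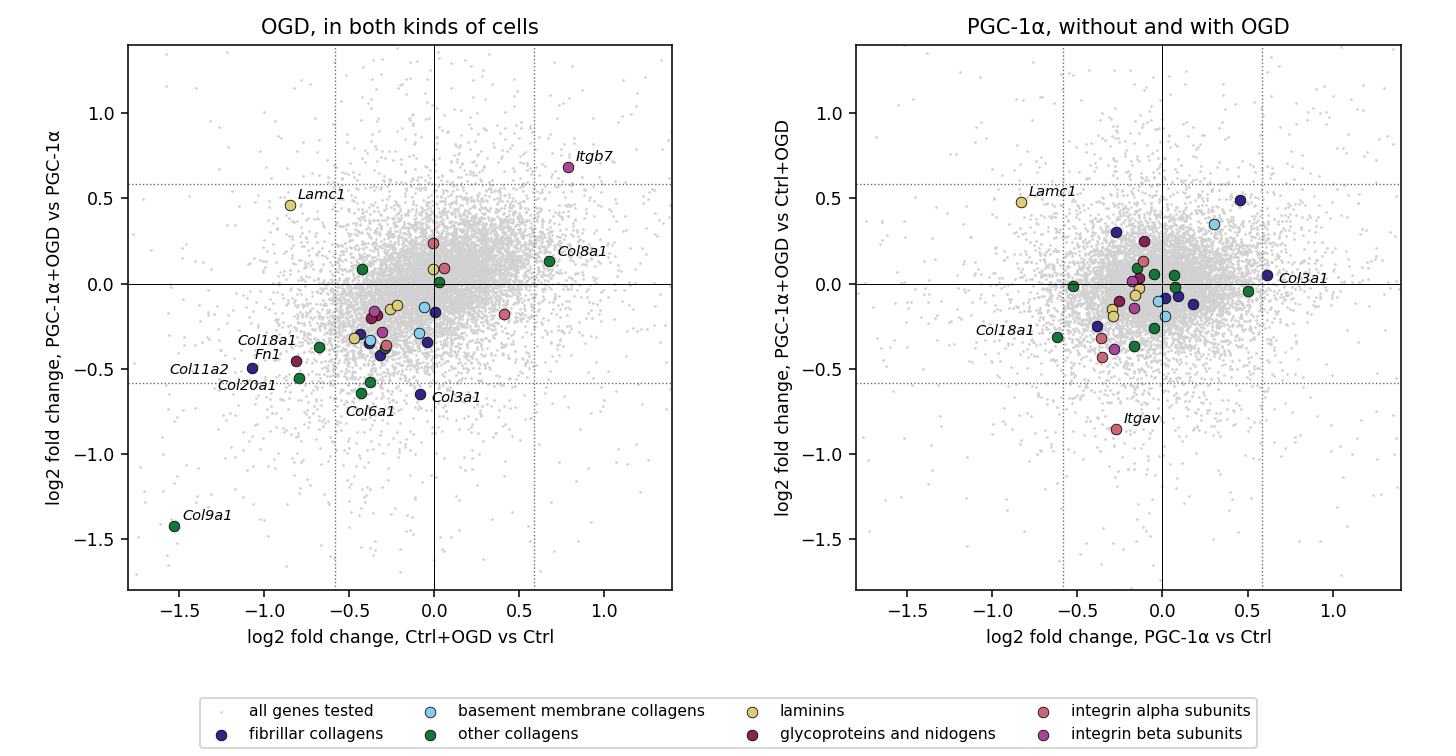
Log2 fold changes of log2(FPKM + 1) for OGD in Ctrl cells against OGD in PGC-1α cells (left), and for PGC-1α without OGD against PGC-1α with OGD (right). Gray points are the 10604 genes, colored points the 34 by class, dotted lines 1.5-fold, and a gene is named where it passes 1.5-fold on either axis; in the left panel 24 of the 34 points lie below 0 on both axes, with Col9a1 at -1.53 and -1.43.

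PGC-1α overexpression went with fewer differences. Without OGD, 1 of the 34 genes was higher by 1.5-fold (2.94%), against 4.91% of all genes, and 2 were lower (5.88%), against 5.63%. With OGD, 0 were higher, against 3.08% of all genes, and 1 was lower (2.94%), against 3.82%. These shares are near those of all genes. The shares below 0 were 24 of 34 without OGD, against 54.2% of all genes, and 22 of 34 with OGD, against 52.9%, with medians of -0.14 and -0.07 where all genes had -0.03 and -0.01. In both comparisons, 16 of 34 (47.1%) were below 0, against 30.4% of all genes, 4 (11.8%) above 0, against 23.3%, and 14 (41.2%) changed sign, against 46.3%. No member passed 1.5-fold on the same side in both, which 0.707% of all genes did as higher and 0.745% as lower.

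Col3a1 (ENSMUSG00000026043, chromosome 1, plus strand, 45311538 to 45349706) was the gene higher by 1.5-fold in PGC-1α than in Ctrl, at 0.61, and was at 0.05 with OGD, where both levels were near 3 FPKM. Its neighbour Col5a2, which lies 24614 bases away on the opposite strand, was at 0.46 and 0.49, below 1.5-fold but above 0 in both comparisons. Col4a5 was at 0.30 and 0.35. Col18a1 (ENSMUSG00000001435, chromosome 10, minus strand, 77052178 to 77166548) was lower by 1.5-fold without OGD, at -0.62, and was at -0.31 with it. Col16a1, at -0.53, and Col8a1, at 0.50, came close to 1.5-fold without OGD and were at -0.01 and -0.04 with it.

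Itgav (ENSMUSG00000027087, chromosome 2, plus strand, 83724397 to 83806916) was the gene lower by 1.5-fold in PGC-1α+OGD than in Ctrl+OGD. Its level was 22.2 FPKM in the OGD-treated control and 11.8 FPKM in the overexpressing cells, a log2 fold change of -0.86, and without OGD the change was -0.27. Of its partners Itgb5 was at -0.14 and Itgb1 at 0.02 with OGD, so the ratio of Itgb5 to Itgav was 2.59 in Ctrl+OGD and 4.33 to 4.71 in the other 3 libraries. The integrins as a group were below 0 without OGD in 7 of 7, with a median of -0.27 and values between -0.36 and -0.12, none of which passed 1.5-fold. With OGD 5 of 7 were below 0 and the median was -0.32. The ones above 0 were Itga5 (0.13) and Itgb1 (0.02), which together form the fibronectin receptor.

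The laminins were below 0 without OGD in 5 of 5, with a median of -0.29, and with OGD in 4 of 5, with a median of -0.07. The exception was again Lamc1 (ENSMUSG00000026478, chromosome 1, minus strand, 153218922 to 153332786), which was lower by 1.5-fold in PGC-1α than in Ctrl, at -0.83, and was at 0.48 with OGD. Lamb1 was at -0.30 and -0.15.

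How a gene's value was split between its transcripts bore on several of these results. For the 43 genes 85 transcripts had a value, 25 genes had 1 transcript and 18 had 2 or more, and 18 transcripts are marked in the annotation as incomplete at an end. Lamc1 had a full-length transcript, Lamc1-201 of 7622 bases, at 62.6, 57.9, 57.3 and 48.1 FPKM. It also had Lamc1-204, a piece of 1447 bases and 3 exons that is incomplete at its start, at 43.1, 0.966, 0.886 and 33.5 FPKM. Thus Lamc1-201 alone was nearly level, at -0.11 for PGC-1α vs Ctrl and -0.12 for Ctrl+OGD vs Ctrl, and the short piece was high in Ctrl and PGC-1α+OGD and near 1 FPKM in the other libraries.

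Sparc showed the largest shift between transcripts. Sparc-202 had 379, 20.99, 60.8 and 34.9 FPKM, so Ctrl stood apart, whereas Sparc-201 had 36.8, 406, 362 and 353 FPKM. Sparc-202 therefore made up 68.1% of the gene in Ctrl and 4.49% to 13.8% elsewhere. These transcripts differ in the first exon and by the 3 bases in capitals in the exon printed above. A shorter form, Sparc-207, had 109, 21.2, 9.81 and 0.00204 FPKM. The incomplete Sparc-206 was listed at 1.47 FPKM in Ctrl and at 0 in the other 3 libraries. The sum over transcripts moved much less, by -0.25 for PGC-1α vs Ctrl and -0.34 for Ctrl+OGD vs Ctrl. Sparc-201 alone was on the other side of 0, at 3.43 and 3.26. Which reads separated the transcripts, and whether the authors' estimator placed them correctly, was not tested.

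In Fn1 the leading transcript kept a similar share while the sum did not stay level. Fn1-201, the form with both extra domains and a coding length of 7431 bases, had 91.1, 75.0, 45.9 and 56.6 FPKM. Of the 7 long Fn1 transcripts it was the only one with extra domain B, whose share of their summed FPKM was 67.6%, 60.1%, 60.8% and 62.5%. Extra domain A was in 4 of the 7, with shares of 82.9%, 78.6%, 78.7% and 80.8%. Each library thus held mainly the cellular form. Between Ctrl and Ctrl+OGD, Fn1-201 was at -0.97, Fn1-203 at -0.68, Fn1-211 at -0.54, Fn1-213 at -0.56 and Fn1-216 at -0.60, whereas the 2 lowest of the 7, Fn1-217 and Fn1-214, were at 0.40 and 0.03.

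Col18a1 has a short, a middle and a long form, made from different starts and splicing. Col18a1-202, the shortest of these 3 by coding length (3945 bases), had 55.7, 21.5, 37.4 and 26.8 FPKM. The longest, Col18a1-201 (5322 bases), had 28.7, 26.2, 10.8 and 9.52 FPKM, and Col18a1-203 (4581 bases) had 6.80, 4.54, 4.01 and 4.86 FPKM. The short form differed most between PGC-1α and Ctrl (-1.33) and the long form most with OGD (-1.33 in Ctrl cells and -1.37 in PGC-1α cells). The highest transcript of Col6a3 was Col6a3-202 (96.8, 84.4, 66.7 and 77.3 FPKM), with 46.4% to 55.9% of the gene. The incomplete Col6a3-203 followed (59.7, 61.7, 44.1 and 49.5 FPKM), while the low form Col6a3-208 was listed at 0, 14.2, 8.44 and 0 FPKM. Itgav-201, at 11.6, 7.22, 14.8 and 7.21 FPKM, carried most of the difference in that gene. Itgav-202 was listed at 0, 3.51, 6.26 and 2.27 FPKM, and the incomplete Itgav-205 at 1.28, 1.15, 0 and 0.645 FPKM. Lamb1-201 was at 56.7, 63.1, 50.6 and 39.5 FPKM and Lamb1-205 at 34.5, 10.8, 14.7 and 18.6 FPKM.

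**Figure D4:**
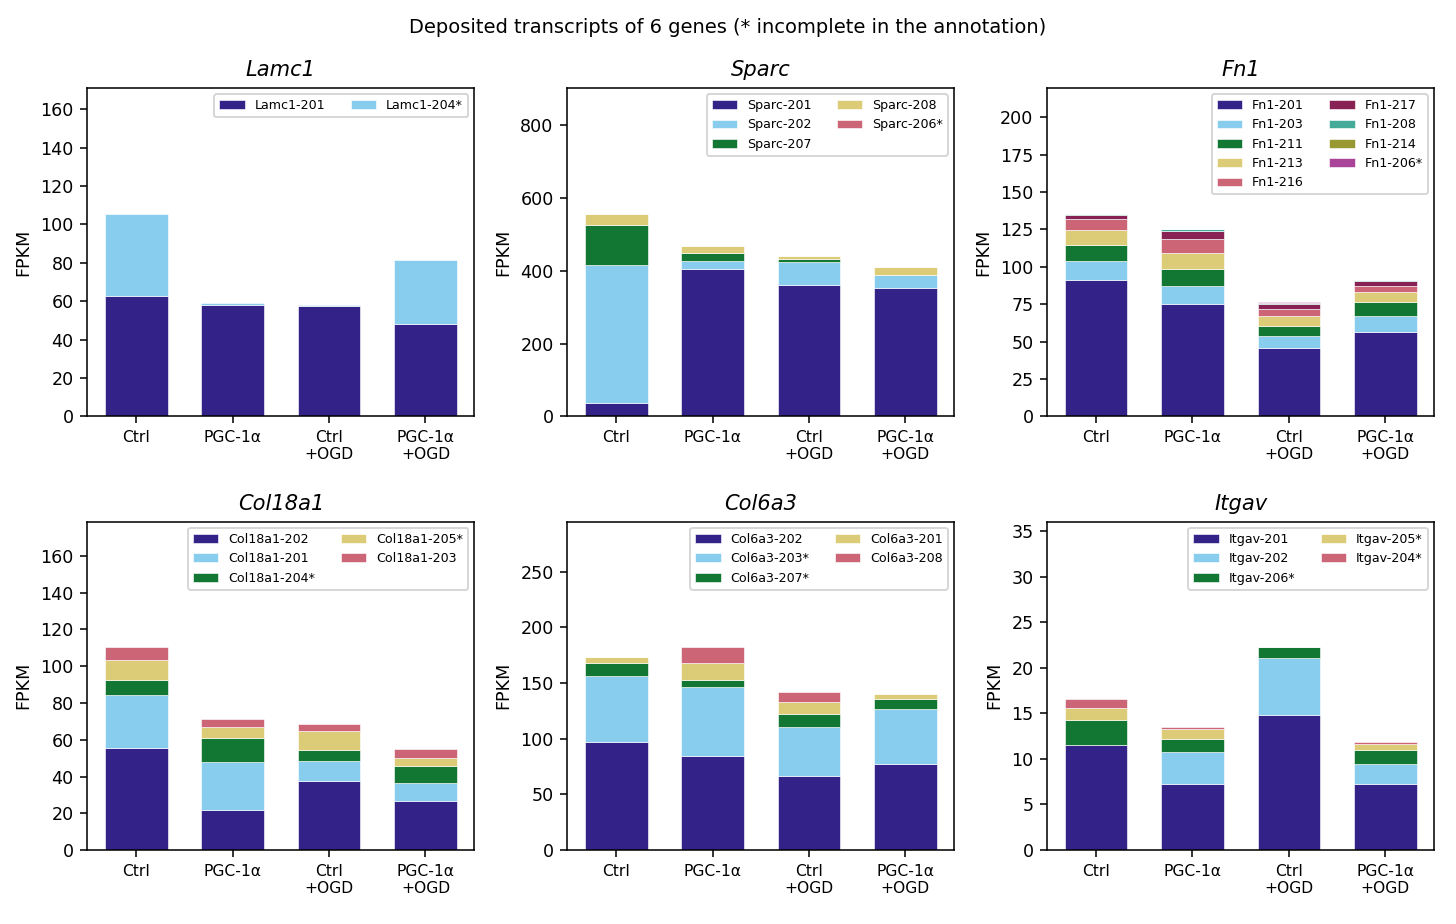
FPKM of each deposited transcript (vertical axes, each from 0) of 6 genes in the 4 libraries, stacked per library, with transcripts incomplete in the annotation starred. Lamc1-204 appears in Ctrl (43.1) and PGC-1α+OGD (33.5), and Sparc-202 fills most of the Ctrl bar (379) where Sparc-201 fills the others (353 to 406).

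The 16 compared genes with a single deposited transcript show no such split among the deposited values. Whether reads were shared with transcripts that have no value was not tested. Their median was -0.07 for OGD in Ctrl cells and -0.15 in PGC-1α cells. Of the 16, 12 and 10 were below 0, against 52% and 49.9% of all genes. The 18 genes with several transcripts had medians of -0.37 and -0.31, with 16 of 18 below 0 in each comparison. The genes lower by 1.5-fold with a single transcript were Col9a1 in Ctrl cells and Col9a1, Col3a1 and Col6a1 in PGC-1α cells. Transcript length moved with the OGD change as well. Of the 34 genes 30 fell in the longest of 3 equal classes of genes by transcript length, whose 3533 genes had a median of -0.12 for OGD in Ctrl cells and -0.03 in PGC-1α cells, against 0.10 and 0.04 in the shortest class. The 30 had -0.30 in each. After removal of a linear trend in length and GC content over all genes, the medians of the 34 genes were -0.22 and -0.23. Then 22 and 26 were below 0, where 28 and 26 had been before, and the share of all genes below 0 is not given. The medians of all genes were then -0.01 and 0.00.

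Related genes of matrix assembly were read from lists of general knowledge. Over all genes the shares higher and lower by 1.5-fold were those given above, 6.2% and 7.71% for OGD in Ctrl cells, 3.82% and 5.22% for OGD in PGC-1α cells, 4.91% and 5.63% for PGC-1α without OGD, and 3.08% and 3.82% for PGC-1α with OGD. Of 31 enzymes and chaperones that modify, fold or cross-link collagen, 25 were compared, with medians of -0.08 and -0.03 for PGC-1α without and with OGD and 0.05 and 0.02 for OGD in Ctrl and PGC-1α cells. None passed 1.5-fold for PGC-1α without OGD and Bmp1, the procollagen C-proteinase, was lower with OGD (-0.67). After OGD in Ctrl cells 3 were higher and 0 lower, led by P3h3 (0.96) and P4ha2 (0.80), prolyl 3- and 4-hydroxylase subunits, with Bmp1 at 0.74. In PGC-1α cells Colgalt1, a collagen galactosyltransferase, was higher (0.90) and Loxl2, a cross-linking lysyl oxidase, lower (-0.70). After OGD in Ctrl and PGC-1α cells, 12 and 11 of these 25 genes were below 0, against 52% and 49.9% of all genes. Of the 19 collagen chains, 16 were below 0 in each comparison.

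Of 34 matrix proteases and inhibitors 15 were compared. For OGD their medians were -0.34 in Ctrl cells and -0.09 in PGC-1α cells, with 12 and 10 of 15 below 0. The first median is near the -0.31 of the matrix and integrin genes followed here. Adamts5, an aggrecan-cleaving protease, was the only one higher for PGC-1α without OGD (1.08) and the only one lower for OGD in PGC-1α cells (-1.18). Adamts12, a related protease, was the only one lower with OGD in Ctrl cells (-0.62). Of 48 other glycoproteins and proteoglycans 27 were compared. OGD went with 4 lower and 1 higher in Ctrl cells (7.71% and 6.2% of all genes). In PGC-1α cells 3 were lower and 0 higher (5.22% and 3.82%). Their OGD medians were -0.05 in Ctrl cells and -0.12 in PGC-1α cells, with 15 and 19 of 27 below 0. Agrn (agrin, a heparan sulfate proteoglycan of synapses and basement membranes) was lower in both, at -1.75 and -1.71, as was Vcan (versican), at -0.75 and -1.15. Ltbp1, which stores latent TGF-β in the matrix, was higher in Ctrl cells (0.78). For PGC-1α without OGD, Efemp2 (0.63) and Tnxb (0.60) were higher and Smoc1 (-0.73) lower, and with OGD none passed 1.5-fold.

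On the side of the receptors, 36 of 40 adhesion adaptors and kinases were compared, and at most 1 was higher and 1 lower in any comparison, with medians between -0.04 and 0.02. Crk, an adaptor of focal adhesions, was higher with OGD in both kinds of cells (0.93 and 0.97), and Nedd9 was lower in PGC-1α cells (-0.78). With PGC-1α, Tns3 was higher (0.67) and Fyn lower (-0.62) without OGD, and Tln2 was higher (0.68) and Tgfb1i1 lower (-0.65) with it. Of 24 other matrix receptors and integrin partners 21 were compared. Their OGD medians were -0.16 in Ctrl cells and -0.09 in PGC-1α cells, and 14 of 21 were below 0 in each. With OGD 4 of the 21 were lower in Ctrl cells (7.71% of all genes), led by Lpp (-0.86), which is not itself a receptor, and Cd47 (-0.76). In PGC-1α cells 2 were lower (5.22% of all genes), Ddr2 (-0.88), a collagen receptor kinase, and Sdc4 (-0.74). With PGC-1α, Cd82 was lower without OGD (-0.67) and Ddr2 with it (-0.68), and none of the 21 was higher in any comparison.

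Of 28 genes of the TGF-β pathway, a main inducer of collagen genes, 23 were compared. Their OGD medians were -0.21 in Ctrl cells and -0.12 in PGC-1α cells, with 15 and 17 of 23 below 0. With OGD 3 of the 23 were lower and 1 higher in each kind of cells, where 7.71% and 6.2% of all genes were in Ctrl cells and 5.22% and 3.82% in PGC-1α cells. Lrrc32, which holds latent TGF-β on the cell surface, had the largest difference (-2.30 and -1.58), Tgfbr3 was at -1.05 in Ctrl cells and Snai1 at -1.02 in PGC-1α cells, while Smad6, an inhibitor of the pathway, was higher in Ctrl cells (0.89) and Snai2 in PGC-1α cells (0.70). For PGC-1α without OGD, Snai1 was higher (1.13) and Tgif1 (-1.25) and Snai2 (-1.17) were the lowest of 3 lower genes. With OGD, 0 of the 23 passed 1.5-fold on either side for PGC-1α.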

How the data were processed

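RNA-Seq libraries of HT-22 cells (4 groups, 1 library each, conditions from the sample records) were prepared by the authors from poly(A) RNA with a stranded kit, sequenced as paired-end reads on an Illumina HiSeq instrument, and aligned to GRCm38 with HISAT2 2.1.0 per the submitters' processing notes. From these alignments the authors deposited a value per library for 25889 transcripts, taken here as FPKM. The table does not name the unit, but its column totals differ (331892 to 353381) and lie far below those of TPM. The program and annotation behind the values, and its use of strand, are not given in the sources used here. Every transcript reached at least 0.500 FPKM in a library. Depth is unknown: at most 25.4% of the 489 to 492 low values of a library lay within 0.1 reads of a whole step.

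Transcripts were matched to GENCODE release M21 without version (25822 matched and 67 did not, and 81 of the 85 transcripts of the described genes had the same version) and summed per gene. Differences of log2(FPKM + 1) were computed without scaling for genes whose mean reached 1 FPKM, and called at 1.5-fold. Named were the genes past 1.5-fold in any comparison, the 3 highest of each class, partner subunits, genes listed at 0 in 1 library and above 1 FPKM in another (there were none), the 2 largest changes of each related list per direction and comparison, and Ppargc1a; other members are given for completeness, the transcripts named were chosen after their values were seen, and 2 genes are counted but not reported by name. The genes and lists were chosen with earlier results of these data known, and the gene lists come from general knowledge. Sequences came from RefSeq (GRCm38.p6) and GENCODE M21 transcripts. Exons shared with another gene on the same strand were found for Col20a1, Col3a1 and Col7a1, whose partners had no value, and reads shared between paralogs could not be separated. Alternatives were no filter, pseudocounts of 0.1 and 0.01, a mean of at least 5 FPKM, upper quartile and median ratio scaling, a fold of 2, the highest transcript, and protein-coding transcripts only. Chosen after seeing the data were the removal of incomplete transcripts and of a trend in length and GC content. The work used pandas 2.3.3, numpy 2.4.6 and matplotlib 3.10.9 under Python 3.11.15, and the computation was tested on simulated data.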

Additional observations from a re-analysis of the deposited data

Results flagged for a closer look

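Lamc1 lay on opposite sides of 0 in both pairs of comparisons. PGC-1α vs Ctrl gave a log2 fold change of -0.83 and PGC-1α+OGD vs Ctrl+OGD gave 0.48, while Ctrl+OGD vs Ctrl gave -0.85 and PGC-1α+OGD vs PGC-1α gave 0.46. These are 2 views of the same 4 values, and they rest on Lamc1-204, the short transcript incomplete at its start: the full-length Lamc1-201 alone was at -0.11, -0.25, -0.12 and -0.26 in the same order. The second gene was Itgav, at 0.41 for OGD in Ctrl cells and -0.18 for OGD in PGC-1α cells, with Itgav-201 alone at 0.33 and 0.00. With 1 library per group, neither difference was tested.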

How the results depend on the processing

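No paired analysis was possible because each group has 1 library, and for the same reason no replicate could be left out. The 11 alternatives turned no median to the other side of 0. The median for PGC-1α+OGD vs PGC-1α was -0.18 with no filter, where 43 genes enter. At a fold of 2, 0 genes were higher and 2 lower for OGD in Ctrl cells, against 1.49% and 1.94% of all genes. For OGD in PGC-1α cells 0 were higher and 1 lower (1.19% and 1.67% of all genes). For PGC-1α without OGD 0 were higher and 0 lower (1.47% and 1.53% of all genes), and with OGD 0 were lower (1.08%). A mean of at least 5 FPKM removed low genes and left 1 higher for OGD in Ctrl cells, against 6.32% of all genes. It left 0 higher for OGD in PGC-1α cells (3.2% of all genes) and 0 for PGC-1α without OGD (4.48%). For PGC-1α without OGD, the lower count was 4 with no filter (5.84% of all genes) and 1 under median ratio scaling (5.17%), with Col18a1 at -0.58. The higher count was 2 with the highest transcript (7.8% of all genes). For PGC-1α with OGD, 2 were lower at pseudocounts of 0.1 and 0.01 (Itga7 added), against 5.12% and 5.28% of all genes. For OGD in PGC-1α cells 5 were lower at 0.01, against 7.59% of all genes.

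With the highest transcript, Sparc-201 stood for Sparc, which turned from -0.25 to 3.43 for PGC-1α without OGD and from -0.34 to 3.26 for OGD in Ctrl cells. There 3 genes were then higher and 4 lower, and both counts were near the shares of all genes at that setting. The excess of lower genes in the main setting (17.6% against 7.71% of all genes) was thus mostly absent. At pseudocounts of 0.1 and 0.01 the same 6 genes were lower as in the main setting. More of all genes were then lower than the 7.71% of the main setting, so that excess was smaller. Lamc1 was not called with the highest transcript or without incomplete transcripts (-0.11 and -0.12), and Col11a2 (-0.54) and Col18a1 (-0.56) were not called for OGD in Ctrl cells with the highest transcript. Without incomplete transcripts, a choice made after seeing the data, 3 genes were higher for OGD in Ctrl cells too (6.68% of all genes), here Itgav in place of Sparc. Col9a1 stayed past 1.5-fold in both OGD comparisons under all 11 alternatives. Most of these could not change its value, as it rests on 1 complete transcript with a mean of 9.25 FPKM. Under upper quartile scaling, median ratio scaling and the trend removal it was at -1.55, -1.50 and -1.52 in Ctrl cells. In PGC-1α cells it was at -1.44, -1.42 and -1.41. Depth is unknown and there is no replicate error, so the precision of a change of the usual size here cannot be given.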
